A study of Mus musculus with 21 samples.

Results

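The comparison described here is the induction of the TWIST1 monomer within its own cell line. It holds 6 of the 21 libraries of the study, chosen by their titles: 3 of embryoid bodies in which the monomer was induced and 3 of the same line left uninduced. Embryoid bodies are aggregates of differentiating embryonic stem cells. They were grown from A2loxCre mouse embryonic stem cells (strain label C57BL/6) that carry the Twist1 coding sequence behind a doxycycline-responsive promoter, and were collected on day 3. The induced group received doxycycline 16 h before collection and the uninduced group received none, so doxycycline and TWIST1 cannot be told apart within this comparison. Both groups carry the integrated construct, and the labels name 1 integrated line without saying whether it is 1 clone. The other 5 groups of 3 libraries, all given doxycycline, are the parental A2loxCre line and lines that carry TWIST1 joined to itself, to TCF3, to TCF4 or to TCF12. They are used below only to set the genes of the monomer line beside them.

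TWIST1 belongs to the basic helix-loop-helix family of transcription factors. Such factors pair before they bind, and TWIST1 pairs either with a second TWIST1 or with a member of the E-protein family to contact the sequence CANNTG, called an E-box. The ID proteins lack a DNA-binding region and hold E-proteins away from such dimers. In the embryo TWIST1 is known for its roles in head mesenchyme, cranial neural crest and limb mesoderm, and in the transition of epithelial cells to mesenchymal ones.

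Total counts of the 6 libraries ranged from 6648842 to 10326871. Uninduced replicate 1 had the lowest total and stood apart from the others. The 3 loci Gm42418, Lars2 and Gm23935 took 5.16% of its counts (95% Wilson interval 5.14 to 5.18), against 0.174% to 0.266% in the other 5 libraries. Genes for ribosomal RNA matched by symbol took 0.316% of it (0.312 to 0.32), against 0.0837% to 0.108%. Every pair of replicates differed by more than sampling noise in a chi-square test of their counts, by 1.62 to 2.06 per degree of freedom, and by 24.5 and 27.3 in the 2 pairs with uninduced replicate 1. Counts of lists are given without this library where they differ. The labels do not say that replicates are separate cultures, so p-values measure the spread between these samples, which may be technical.

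Few genes passed, mostly with modest changes, and more of them rose than fell. Of 13119 genes tested, 437 rose (3.33%) and 245 fell (1.87%) when TWIST1 was induced, which is 5.20% in all (edgeR, adjusted p under 0.05). The median size of change among them was 1.4-fold, and 105 genes rose (0.800%) and 18 fell (0.137%) by at least 2-fold. Genes that did not pass may also have changed, since 2295 genes had an unadjusted p under 0.05 (edgeR). In 672 of the 682 genes the 3 induced and 3 uninduced libraries did not overlap, against 21.9% of all genes tested. The 682 were selected on these same libraries, so this contrast describes them and adds no support. Without uninduced replicate 1, 382 genes rose and 196 fell, and 354 of the 437 rises and 162 of the 245 falls were among them. The counts also depended on other libraries: 257 rose and 118 fell without uninduced replicate 2, 279 and 114 without induced replicate 1, and 139 fell without induced replicate 3. In the 6 fits that leave out 1 library each, 229 of the rises and 81 of the falls passed every time.

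**Figure D1:**
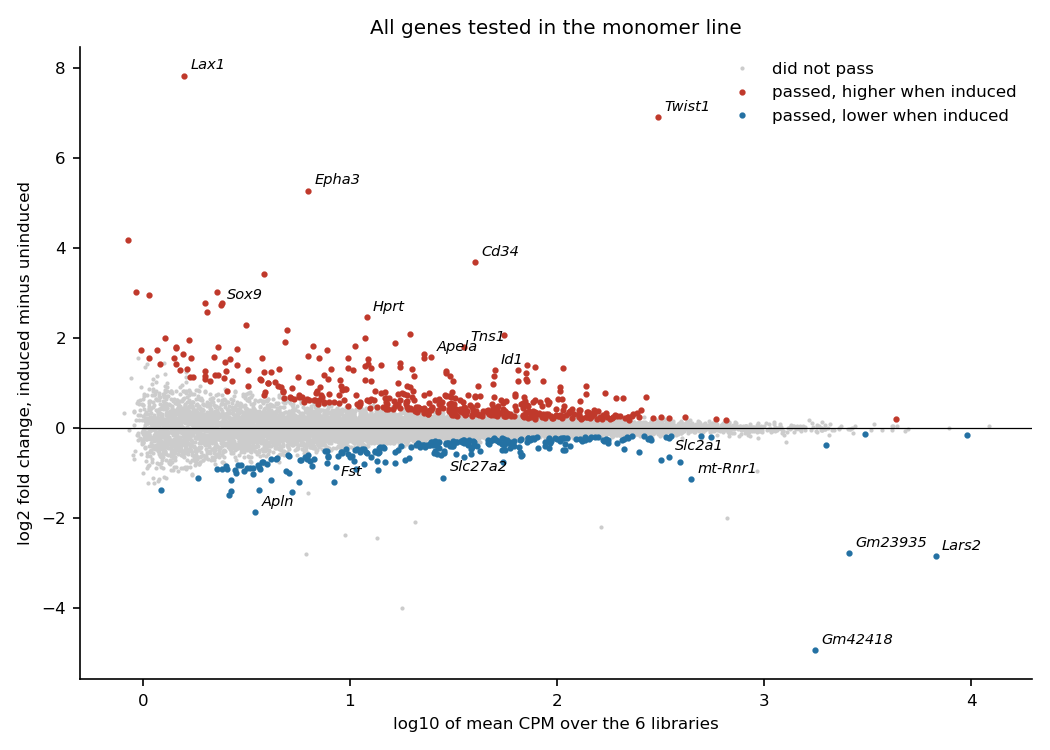
Each point is 1 of the 13119 genes tested in the monomer line, by its mean level over the 6 libraries (x axis, log10 of CPM) and its log2 fold change, induced minus uninduced (y axis). Red genes rose, blue genes fell and grey genes did not pass; rises reach further than falls, except for Gm42418, Lars2 and Gm23935, which are high in 1 uninduced library only.

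Twist1 checked the labels. It stood at 4.31, 5.61 and 5.13 CPM in the uninduced libraries and at 643, 604 and 580 CPM in the induced ones. The groups were far apart, with a log2 fold change of 6.89 ± 0.08 (SE, edgeR adjusted p = 1.29e-19). Reads of the resident gene on chromosome 12 (33957671 to 33959829, GRCm38) and of the integrated coding sequence cannot be told apart. The parental line held 8.07 ± 0.777 CPM (SD, n = 3), so the uninduced line showed no level above it.

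The partners of TWIST1 did not pass, while 3 of their 4 ID inhibitors rose. Tcf3 had a log2 fold change of 0.09 ± 0.06 (adjusted p = 0.533), Tcf4 of 0.19 ± 0.08 (0.236) and Tcf12 of 0.22 ± 0.08 (0.125; edgeR for all 3). Tcf12 alone among them passed in some alternatives, with an adjusted p of 0.0428 when no filter on low counts was used, 0.0383 without uninduced replicate 3 and 0.0402 without induced replicate 2. Id1 stood at 28.6, 31.2 and 27.3 CPM uninduced and 74.1, 74.0 and 64.7 CPM induced. Every induced library lay above every uninduced one, at a log2 fold change of 1.29 ± 0.08 (adjusted p = 6.27e-09). Id3 rose by 1.03 ± 0.08 and Id2 by 0.97 ± 0.08 on the log2 scale (both adjusted p = 2.65e-07). Id4, at 2.61 to 3.81 CPM in the 6 libraries, did not pass (0.30 ± 0.21, adjusted p = 0.525). The list of partners and inhibitors thus held 3 rises and 0 falls among 7 tested genes, with a median of 0.30 against -0.002 over all genes tested.

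The genes that rose most came from a low or absent level. Lax1, an adaptor protein known from lymphocyte signalling, had 0 counts in all 3 uninduced libraries and 3.39, 2.46 and 3.63 CPM in the induced ones. Its rise was at least 27.7-fold, against a floor of 3 counts over the uninduced group. Epha3, a receptor tyrosine kinase for ephrin-A ligands, was at 0, 0.416 and 0.387 CPM uninduced and 12.4, 12.2 and 12.3 CPM induced. The 3 induced values were nearly equal and the log2 fold change was 5.27 ± 0.28 (edgeR adjusted p = 1.64e-09). Gfra3, a co-receptor of the GDNF family that signals with RET, had 2 counts in the uninduced group, which gives a ratio of 21.2 with a counting interval of 5.54 to 181. Its partner Ret did not pass (0.07 ± 0.27, adjusted p = 0.932).

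Cd34 encodes a cell surface sialomucin of blood progenitors and endothelium. It stood at 5.27, 7.28 and 4.84 CPM uninduced and 78.1, 72.0 and 74.7 CPM induced (log2 fold change 3.68 ± 0.11, edgeR adjusted p = 2.64e-13). Gm16897 lies on the opposite strand at this locus, and because the strand setting of the counting is not given, reads of the pair cannot be told apart. Cd34 was the 1 gene of 9 tested blood and endothelial markers to pass. Kdr was at 1.35 to 2.38 CPM over the 6 libraries and Pecam1 at 6.55 to 9.62 CPM, and neither passed. Without Cd34, the summed level of the other 14 markers was 37.5 to 41.9 CPM uninduced and 39.9 to 44.2 CPM induced, and the embryonic globin genes Hbb-bh1 and Hbb-y were at 0 in all 6 libraries.

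The other large rises included a transcription factor gene and a matrix gene of known mesenchymal roles. Sox9, a transcription factor of cartilage and neural crest, rose from 0.479, 0.728 and 0.580 CPM to 5.20, 4.70 and 2.56 CPM (log2 fold change 2.73 ± 0.35, edgeR adjusted p = 6.81e-05). The elastic fibre gene Fbln5 stood at 0.479, 0.208 and 0.0967 CPM uninduced and 2.38, 1.90 and 1.39 CPM induced (2.96 ± 0.49, adjusted p = 0.000989). Otop1, a proton channel gene, rose by 3.41 ± 0.26 and Dusp15, a phosphatase gene, by 3.01 ± 0.34 on the log2 scale. Slc18a3, the vesicular acetylcholine transporter gene, rose by 2.78 ± 0.33; it lies within Chat on the same strand. Vstm2b (2.77 ± 0.29) and Cped1 (2.58 ± 0.34) overlap genes of the opposite strand. Fut1, a fucosyltransferase gene, rose by 2.29 ± 0.24. Each of the 15 largest rises, ranked by fitted fold change, passed in all 6 fits that leave out 1 library.

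**Figure D2:**
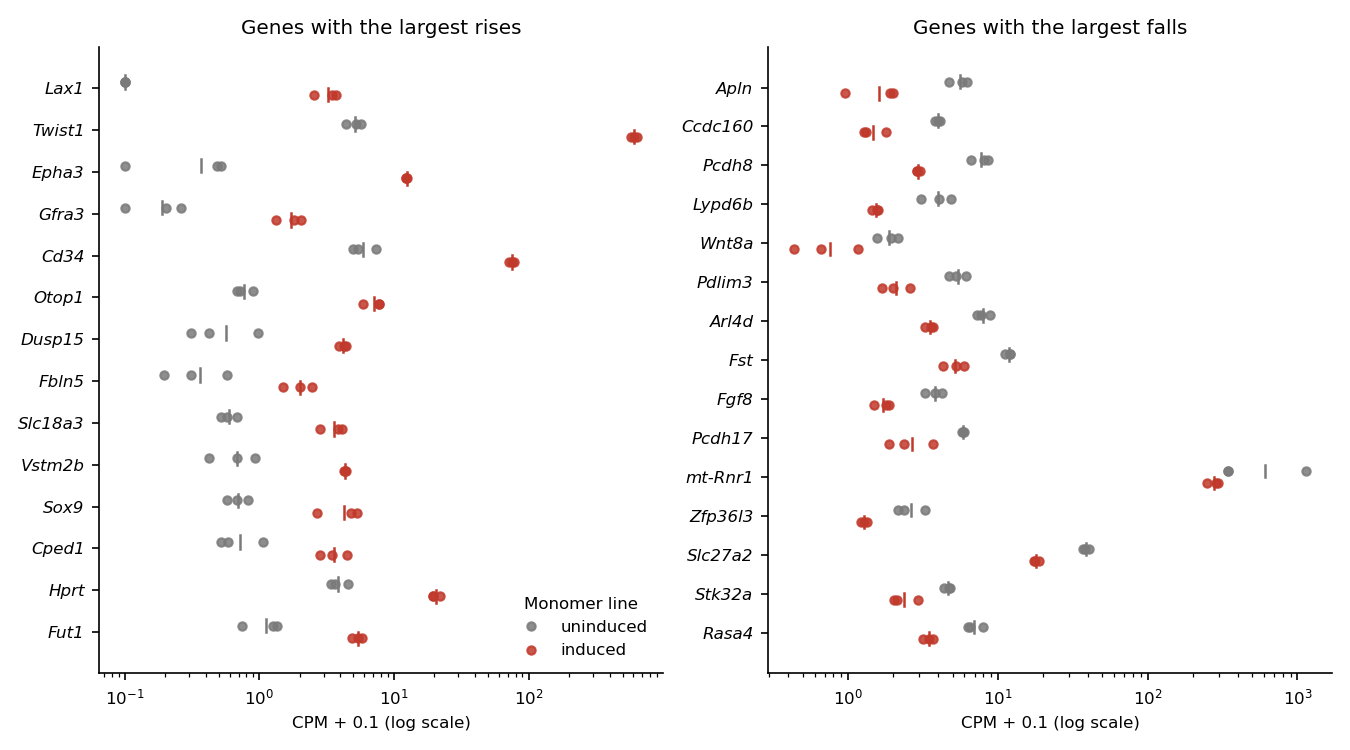
Level of named genes with the largest rises (left) and the largest falls (right) in each library of the monomer line; points are single libraries, short bars group means, and the x axis is CPM + 0.1 on a log scale. Genes were chosen among those whose induced (red) and uninduced (grey) libraries do not overlap, and the spread of mt-Rnr1 comes from 1 uninduced library at 1146 CPM.

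The promoter of Lax1, which had no uninduced counts, is shown because it holds a pair of E-boxes at the spacing of 5 bases that TWIST1 dimers are known to bind as a unit. The sequence below is the 250 bases before the Lax1 start (chr1:133690109-133690358, minus strand, GRCm38.p6, RefSeq), with E-boxes in capitals.
Lax1: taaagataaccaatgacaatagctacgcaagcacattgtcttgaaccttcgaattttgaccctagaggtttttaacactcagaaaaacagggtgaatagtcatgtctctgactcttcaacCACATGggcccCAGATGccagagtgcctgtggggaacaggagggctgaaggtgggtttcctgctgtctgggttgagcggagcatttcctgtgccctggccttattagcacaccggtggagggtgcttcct
The motif CANNTGNNNNNCANNTG, read on both strands, was found in 8 of the 337 risen genes with a promoter window, in 0 of the 177 fallen ones and in 39 of 10005 genes tested (0.39%). Windows run from 250 bases before to 50 after a start, and 0.767% of all 32851 windows hold it. Only 77.1% of the risen and 72.2% of the fallen genes have a window, under the 80% needed, so the comparison of these shares is void. The 6 other risen genes with the motif before their start, each with 10 bases on both sides, are given for comparison with Lax1. Capitals mark the pair alone, and the Anpep stretch holds another E-box, in lower case, directly before its pair.
Anpep (chr7:79848405-79848441, minus strand): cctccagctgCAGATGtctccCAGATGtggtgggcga
S1pr2 (chr9:20976999-20977035, minus strand): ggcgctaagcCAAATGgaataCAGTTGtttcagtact
Igsf3 (chr3:101376911-101376947, plus strand): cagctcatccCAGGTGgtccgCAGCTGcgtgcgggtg
Tnk1 (chr11:69858860-69858896, minus strand): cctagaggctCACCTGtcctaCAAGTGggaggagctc
Coro7 (chr16:4679890-4679926, minus strand): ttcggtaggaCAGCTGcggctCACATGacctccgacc
Hif1a (chr12:73907745-73907781, plus strand): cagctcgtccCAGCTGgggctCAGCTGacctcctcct
In the order printed, their log2 fold changes were 1.22, 0.70, 0.53, 0.44, 0.32 and 0.18, and none apart from Lax1 was among the 15 largest rises. Tmem45a holds the motif after its start. The windows of Twist1, Epha3 and Cd34 hold no E-box, which says only that these letters are not in those windows. The single motif CANNTG was in 59.3% of the windows of risen genes, 65.5% of those of fallen genes and 62.6% of those tested.

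The 15 largest falls, from -1.88 to -1.01 on the log2 scale, included secreted signals and surface molecules known from the gastrulating embryo. Apln, which encodes the peptide apelin, fell from 4.63, 5.72 and 6.09 CPM to 1.81, 1.90 and 0.853 CPM, a log2 fold change of -1.88 ± 0.25 (edgeR adjusted p = 8.55e-05). Pcdh8, a protocadherin gene of paraxial mesoderm, fell from 8.47, 8.01 and 6.58 CPM to 2.94, 2.80 and 2.77 CPM (-1.42 ± 0.18, adjusted p = 4.73e-05). Its opposite strand holds Gm9748. Fst, which encodes the activin antagonist follistatin, stood at 12, 11.1 and 12 CPM uninduced and 4.18, 5.15 and 5.86 CPM induced (-1.20 ± 0.15, adjusted p = 4.06e-05). Fgf8, a growth factor gene of the primitive streak, fell from 4.15, 3.74 and 3.19 CPM to 1.70, 1.79 and 1.39 CPM (-1.16 ± 0.24, adjusted p = 0.00561).

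Slc27a2, a fatty acid transporter gene, stood at 38.3, 36.9 and 40.2 CPM uninduced and 18.8, 17.2 and 17.7 CPM induced (-1.11 ± 0.08, edgeR adjusted p = 7.8e-08). Pdlim3, a gene of the actin cytoskeleton, fell by 1.39 ± 0.22 on the log2 scale, the small GTPase gene Arl4d by 1.21 ± 0.17, the protocadherin gene Pcdh17 by 1.16 ± 0.22 and the Ras GTPase activator gene Rasa4 by 1.01 ± 0.17. Lypd6b fell by 1.40 ± 0.25 and the kinase gene Stk32a by 1.02 ± 0.21. Fst, Slc27a2, Pcdh17, Rasa4 and Lypd6b each overlap another annotated gene, so their counts share the uncertainty given for Cd34. Of the 15 largest falls, 3 did not pass in every fit that leaves out a library. Wnt8a, from 2.08, 1.46 and 1.84 CPM to 0.565, 0.336 and 1.07 CPM (-1.39 ± 0.39, adjusted p = 0.0492), passed in 1 of the 6 fits that leave out a library, that without induced replicate 3. Zfp36l3 (-1.13 ± 0.28, adjusted p = 0.0263) also passed in 1 of 6, that without uninduced replicate 1. The mitochondrial ribosomal RNA gene mt-Rnr1 stood at 1146, 346 and 342 CPM uninduced and 249 to 294 CPM induced, and its log2 fold change was -1.15 (adjusted p = 0.0359) with and -0.32 (adjusted p = 0.00207) without uninduced replicate 1. The 18 falls of at least 2-fold are these 15 and Gm42418, Lars2 and Gm23935. Those 3 overlapped between the groups, and without uninduced replicate 1 their log2 fold changes were 0.53, 0.17 and 0.28, none of which passed.

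Among genes of the primitive streak and mesoderm, 5 of 19 tested fell and 1 rose, with a median of -0.105, where 1.87% of all genes fell and 3.33% rose. Without uninduced replicate 1, 4 of 22 fell and 1 rose. Besides Apln, Pcdh8, Wnt8a and Fgf8, Nodal fell, a TGF-beta family signal of the streak. It stood at 46.2, 43.4 and 41.0 CPM uninduced and 24.4, 30.1 and 28.3 CPM induced (-0.65 ± 0.08, edgeR adjusted p = 7.23e-05). The Notch ligand gene Dll1 rose by 0.52 ± 0.12 (adjusted p = 0.0177) and passed in 3 of the 6 fits that leave out a library. The defining streak genes T, at 0.960 to 1.92 CPM, and Mixl1, at 1.57 to 2.71 CPM, were near the low end of what was tested and did not pass. Eomes had a log2 fold change of -0.35 ± 0.10 (adjusted p = 0.0598). In the parental line T, Mixl1 and Eomes averaged 25.9, 17.5 and 132.6 CPM. Their means in the uninduced monomer line were 1.58, 2.06 and 27.8 CPM, a difference that was not tested. In these bulk samples, fewer cells of a type and less RNA per cell cannot be told apart.

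Of 30 pluripotency and epiblast genes, 9 fell and 0 rose, all by less than 1.5-fold, and their median was -0.114. Over all genes 1.87% fell, and without uninduced replicate 1 the list held 10 falls and 1 rise. Fgf4 fell from 129, 137 and 118 CPM to 88.3, 94.7 and 90.1 CPM (-0.50 ± 0.06, edgeR adjusted p = 6.47e-05). Lefty2, an antagonist of Nodal, fell by 0.46 ± 0.06, and the naive state factors Klf2 by 0.43 ± 0.08 and Nanog by 0.42 ± 0.07 on the log2 scale. The DNA methyltransferase gene Dnmt3b, Fgf5 and Pou3f1, which mark the later epiblast, also fell (-0.37, -0.33 and -0.28). The core factors Pou5f1 (0.00 ± 0.06, adjusted p = 0.984) and Sox2 (0.04 ± 0.05, adjusted p = 0.767) did not pass.

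**Figure D3:**
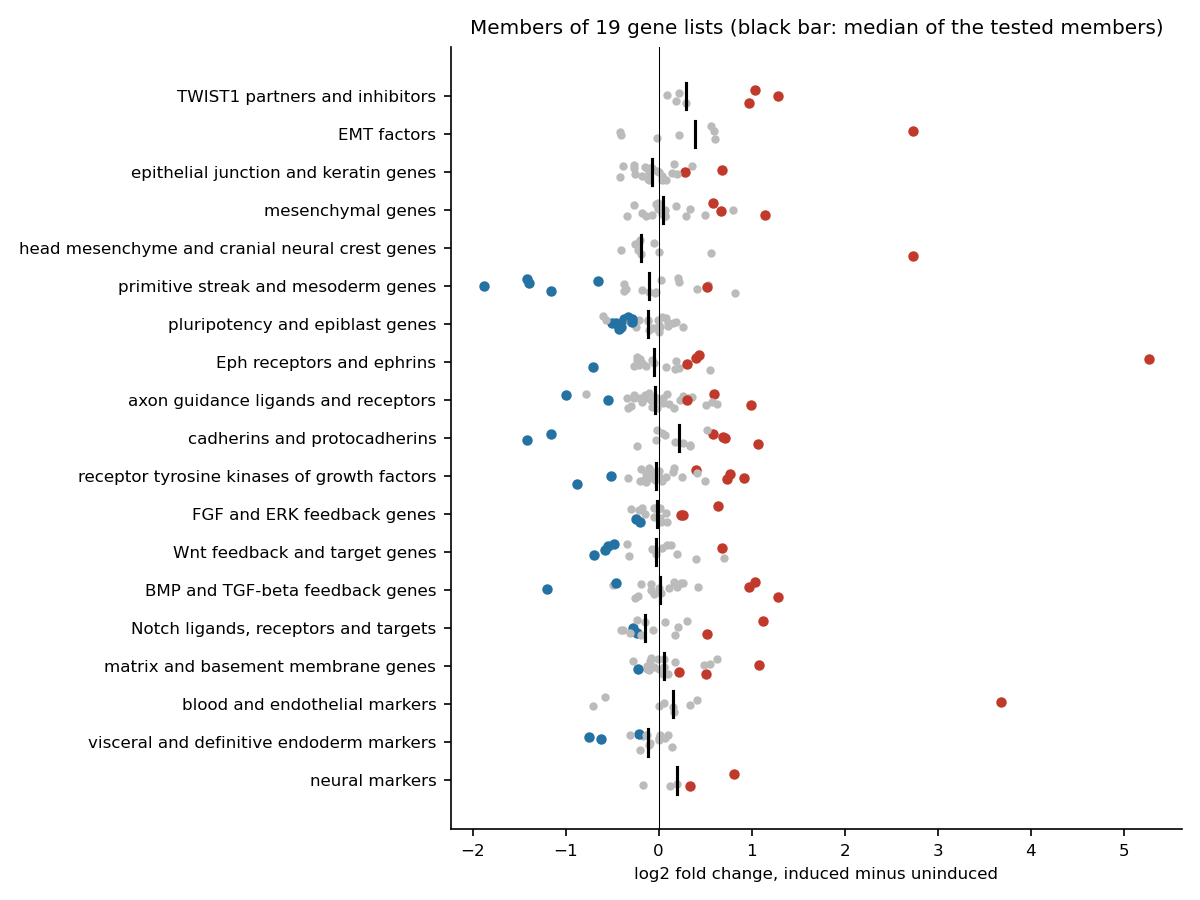
Log2 fold change, induced minus uninduced (x axis), of every tested member of the gene lists named on the y axis; red members rose, blue ones fell, grey ones did not pass, and black bars are medians. The medians lie between -0.194 (head mesenchyme and neural crest) and 0.39 (factors of the epithelial to mesenchymal transition), against -0.002 over all genes tested.

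Genes of the epithelial to mesenchymal transition were counted next, against 3.33% rises and 1.87% falls over all genes tested. Of 8 tested factors of the transition, Sox9 rose and 0 fell, and without uninduced replicate 1 there was 1 fall among 9. Zeb2 (0.60 ± 0.20, edgeR adjusted p = 0.118), Zeb1 (0.60 ± 0.25, adjusted p = 0.221) and Snai1 (-0.02 ± 0.21, adjusted p = 0.978) did not pass. Of 23 epithelial genes, 2 rose and 0 fell: the claudin gene Cldn4 by 0.68 ± 0.09 and the keratin gene Krt8 by 0.28 ± 0.06 on the log2 scale. Cdh1, which encodes E-cadherin, stood at 738 to 776 CPM in the 6 libraries and did not pass (-0.01 ± 0.05, adjusted p = 0.93). Of 23 mesenchymal genes, 3 rose and 0 fell. Mmp2, a matrix metalloproteinase gene, rose from 29.7, 29.5 and 32.8 CPM to 70.5, 68.7 and 65.7 CPM (1.15 ± 0.07, adjusted p = 8.57e-09). Cdh2, which encodes N-cadherin, rose by 0.58 ± 0.09. Col3a1 rose by 0.67 ± 0.18 and passed in 2 of the 6 fits that leave out a library. Sox9 was also the 1 gene of 10 tested head mesenchyme and neural crest genes to pass.

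Surface and matrix molecules are given with the same shares over all genes as background, 3.33% rises and 1.87% falls. Of 19 Eph receptors and ephrins, 4 rose and 1 fell. Besides Epha3, the ephrin gene Efnb2 rose from 55.3, 56.4 and 62.9 CPM to 77.4, 80.4 and 79.5 CPM (0.43 ± 0.06, edgeR adjusted p = 0.000326) and Epha1, which overlaps Zyx, rose by 0.40 ± 0.07. Of 16 cadherins and protocadherins, 4 rose and 2 fell, the falls being Pcdh8 and Pcdh17. Pcdh18 rose from 4.47, 5.30 and 5.22 CPM to 11.4, 9.07 and 11.5 CPM (1.07 ± 0.15, adjusted p = 0.00018) and Cdh3, which encodes P-cadherin, by 0.69 ± 0.07. Of 37 axon guidance genes, 3 rose and 2 fell, and the semaphorin receptor gene Plxna2 rose by 0.99 ± 0.10 (adjusted p = 7.39e-06). Of 22 matrix and basement membrane genes, 3 rose and 1 fell. Nid1, which encodes the basement membrane linker nidogen, rose from 42.5, 47.1 and 45.9 CPM to 92.6, 100.2 and 96.2 CPM (1.08 ± 0.06, adjusted p = 4.36e-09). Fbln1 rose by 0.51 ± 0.08. Without uninduced replicate 1 there were 3 cadherin falls among 17 tested, 4 axon guidance rises among 38 and 0 matrix falls.

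The 2 apelin receptor ligands moved in opposite directions. Apela, the second ligand, rose from 13.1, 11.6 and 12.3 CPM to 41.4, 37.8 and 30.9 CPM (1.58 ± 0.11, edgeR adjusted p = 4.61e-08), while Apln fell. Their receptor gene Aplnr, at 0.799 to 2.24 CPM, did not pass (0.82 ± 0.34, adjusted p = 0.2).

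Signalling lists are also set against 3.33% rises and 1.87% falls over all genes. Of 27 growth factor receptor kinases, 4 rose and 2 fell. Tyro3 stood at 108, 104 and 99.5 CPM uninduced and 177, 180 and 162 CPM induced (0.74 ± 0.06, edgeR adjusted p = 1.94e-07), Ror1 rose by 0.92 ± 0.14 and Erbb3 fell by 0.51 ± 0.08. Of 18 FGF and ERK feedback genes, 3 rose and 2 fell, with Il17rd, an FGF antagonist gene, up by 0.64 ± 0.07. Of 16 Wnt feedback and target genes, 1 rose and 4 fell, among them Ccnd1 (-0.48 ± 0.06, adjusted p = 1.81e-05) and Lef1 (-0.57 ± 0.11, adjusted p = 0.00256). Of 20 BMP and TGF-beta feedback genes, the 3 Id genes rose and Fst and Lefty2 fell, while Smad7 did not pass (0.11 ± 0.07, adjusted p = 0.42). Of 15 Notch genes, 2 rose and 2 fell. Lfng, which encodes a glycosyltransferase that modifies Notch receptors, rose by 1.12 ± 0.18, and the falls of Notch3 and Jag2 did not pass without uninduced replicate 1 (adjusted p = 0.075 and 0.0709). Without that library there was 1 fall among 28 receptor kinases, 1 among the FGF and ERK genes and 3 among the Wnt genes, and 4 rises and 3 falls among 21 BMP and TGF-beta genes.

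Markers of other cell types were counted as a check. Of 16 endoderm markers 3 fell and 0 rose, of 5 neural markers 2 rose, of 8 fibroblast markers 2 rose, and of 7 trophoblast and 7 germ cell markers 0 passed, where 3.33% of all genes rose and 1.87% fell. Without uninduced replicate 1, 4 endoderm markers fell and 1 neural marker rose. Of the 3 endoderm falls, 0 passed in all 6 fits that leave out a library. The summed endoderm level was 1513 to 1927 CPM uninduced and 1486 to 1657 CPM induced, and the groups overlapped. The summed fibroblast level was 45.7 to 49.4 CPM uninduced and 47.5 to 54.8 CPM induced, with Fbln5 and Col3a1 as its rises. The neural gene Pax6 (adjusted p = 0.0497) passed in 0 of the 6 fits that leave out a library.

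Genes that report on doxycycline or on stress were set beside these, since the uninduced group had no doxycycline. Over all genes tested 3.33% rose and 1.87% fell, 5.20% in all. Of 13 protein-coding mitochondrial genes, mt-Cytb rose by 0.20 ± 0.05 and mt-Co1 fell by 0.15 ± 0.04 on the log2 scale. Each passed in 2 of the 6 fits that leave out a library, and without uninduced replicate 1 the list held 0 rises and 3 falls. Of 32 genes of the ATF4 and mitochondrial stress response, Ddit4 and Asns rose (0.52 and 0.49) and Slc7a3 fell (-0.47). Its core genes Atf4 (-0.12 ± 0.06, edgeR adjusted p = 0.372), Ddit3 (-0.32 ± 0.17, adjusted p = 0.375) and Trib3 (-0.44 ± 0.16, adjusted p = 0.133) did not pass. Of 19 p53 targets 0 passed, and of 26 cell cycle genes Ccnd1 alone did. The glucose transporter gene Slc2a1 fell from 417, 422 and 421 CPM to 247, 285 and 277 CPM (-0.64 ± 0.05, adjusted p = 3.63e-07), and Pdk1 was the other fall among 21 glycolysis and hypoxia genes. The part of doxycycline in the genes that passed was not tested.

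The A2lox system places its construct beside the Hprt gene on the X chromosome, and that region was examined after its values had been seen. Hprt, which encodes a purine salvage enzyme, stood at 4.47, 3.54 and 3.29 CPM uninduced and 22.1, 19.5 and 19.5 CPM induced (2.46 ± 0.14, edgeR adjusted p = 4.35e-09). The parental line held 82.4 CPM, so both groups of the monomer line lay under it. Of the 14 other tested genes within 3 Mb, 5 fell and 0 rose. Firre, 2.43 Mb before the Hprt start, did not pass (-0.23 ± 0.07, adjusted p = 0.0542). It also fell without uninduced replicate 1 (-0.28, edgeR adjusted p = 0.0145). Ccdc160, 0.20 Mb before the Hprt start, fell from 3.99, 3.74 and 3.87 CPM to 1.70, 1.23 and 1.17 CPM (-1.49 ± 0.24, adjusted p = 0.00063). Fam122b, 0.26 Mb after it, fell by 0.93 ± 0.11, and Zfp36l3, Gpc3 (-0.59 ± 0.07) and Gpc4 (-0.40 ± 0.08) also fell. Phf6, 0.08 Mb before the Hprt start (-0.18 ± 0.07, adjusted p = 0.135) and Mospd1, 0.36 Mb after it (0.01 ± 0.11, adjusted p = 0.985) did not pass. On the whole X chromosome 4.47% of tested genes fell, against 1.87% of all.

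**Figure D4:**
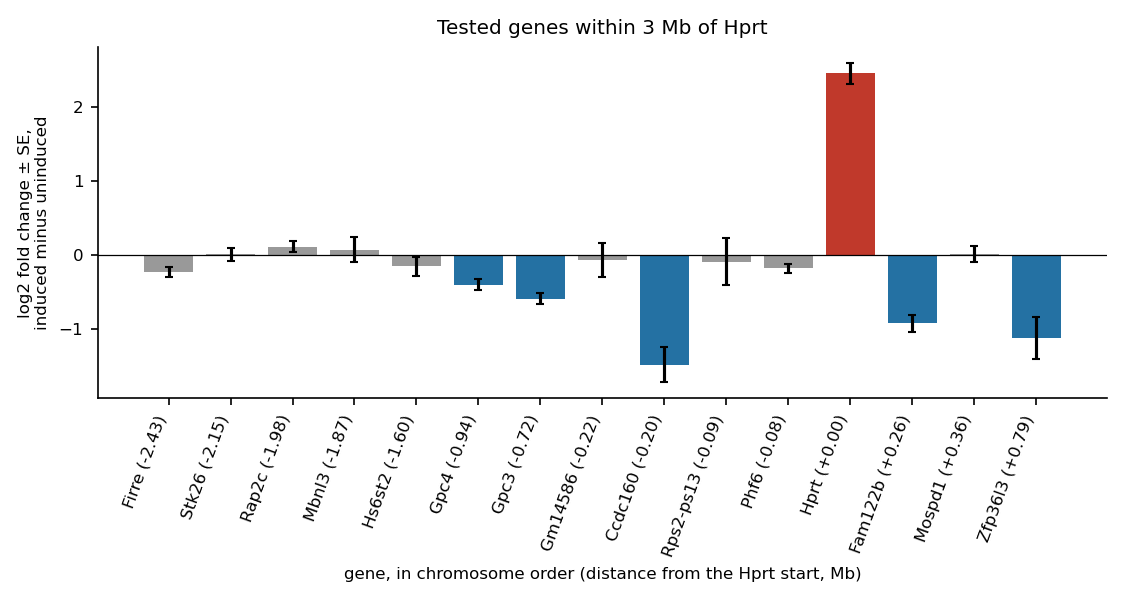
Log2 fold change with its standard error (bars, y axis), induced minus uninduced, of the 15 tested genes within 3 Mb of Hprt in chromosome order, with distance from the Hprt start in Mb. Red rose, blue fell, grey did not pass: Hprt is the 1 rise, and the 5 falls are interspersed with genes that did not pass.

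The genes of the monomer line were then followed in the dimer lines, each tested against the parental line with no library shared with the monomer comparison. The 4 dimer comparisons share the 3 parental libraries. Each dimer line also differs from the parental line in its construct and line history, so a response to the dimer and a trait of the line cannot be told apart. The shares below are a description. Of the risen genes that were tested, 271 of 435 (62.3%) were also higher in the homodimer line, where 12% of all genes were. The counts were 322 of 436 (73.9%, against 24.8%) in the TCF3 dimer line and 316 of 435 (72.6%, against 14.9%) in the TCF4 dimer line. In the TCF12 dimer line they were 157 of 437 (35.9%, against 3.85%), and 315 of 436 (72.2%, against 15.6%) without its replicate 1, which stood apart. Of the 245 fallen genes, 51.4% were also lower in the homodimer line (11.4% of all genes), 65.7% in the TCF3 (24.3%) and TCF4 (14.8%) dimer lines, and 29.0% in the TCF12 dimer line (2.26%), or 69.4% without its replicate 1 (14.4%). In all 4 lines, 125 of the 437 rises and 52 of the 245 falls passed in the same direction, and 48 and 39 did so in none. These counts include TCF12 dimer replicate 1. With it 519 genes were higher and 305 lower in that line, against 2125 and 1964 without it, which limits the count over 4 lines. The matching shares over all genes were not computed.

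Single genes differed in level between the lines. Counted Twist1 was higher in the induced monomer line, at 609 ± 31.8 CPM, than in the dimer lines. It stood at 182.5 ± 17.3 CPM in the homodimer line and 39.7 to 55.3 CPM in the others (SD, n = 3, TCF12 dimer replicate 1 included). Tcf3, Tcf4 and Tcf12 averaged 154.6, 332.9 and 93.6 CPM in the line of their own dimer. Their parental means were 166.3, 47.3 and 65.8 CPM. Whether reads of the constructs are counted equally well was not tested, so Twist1 levels may not compare between lines. Lax1 averaged 14.3 CPM in the homodimer line against 3.16 CPM after monomer induction, and 0 in the parental line. Fbln5 was at 1.89 CPM in the induced monomer line and 16.4 to 27.5 CPM in the 4 dimer lines, and Id1 was at 70.9 CPM against 99.9 to 597 CPM. The upper Id1 value is the TCF12 dimer mean, which was 372.1 CPM without its replicate 1. These differences between lines were not tested. Hprt averaged 8.65 to 30.3 CPM in the 4 dimer lines and 20.4 CPM in the induced monomer line, all under the 82.4 CPM of the parental line.

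Some of the falls started from a level already under that of the parental line. Fst stood at 100.4 CPM in the parental line, 11.7 CPM in the uninduced and 5.07 CPM in the induced monomer line. In that order Fgf8 averaged 25.3, 3.70 and 1.62 CPM, Wnt8a 17.4, 1.79 and 0.656 CPM, and Apln 21.2, 5.48 and 1.52 CPM. The parental line differs from the uninduced one in the construct, in its line history and in having received doxycycline, and these cannot be told apart. Of the 15 largest falls, 9 were lower than the parental line in all 4 dimer lines and 3, Arl4d, Pcdh17 and Rasa4, in none. These counts also include TCF12 dimer replicate 1, and no share over all genes was computed for them. Without that replicate, Rasa4 passed in the TCF12 dimer line (-0.84, edgeR adjusted p = 0.0163). Uninduced means of Arl4d, Pcdh17 and Rasa4 were 7.88, 5.76 and 6.85 CPM. Their parental means were 4.73, 2.40 and 3.74 CPM, a difference that was not tested. A level under the parental line was not always under the uninduced monomer line. Pdlim3, at 5.30 CPM uninduced, averaged 5.44, 2.95, 6.25 and 5.82 CPM in the homodimer, TCF3, TCF4 and TCF12 dimer lines. In the same order Fst, at 11.7 CPM uninduced, averaged 7.80, 8.14, 10.1 and 10.8 CPM.

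**Figure D5:**
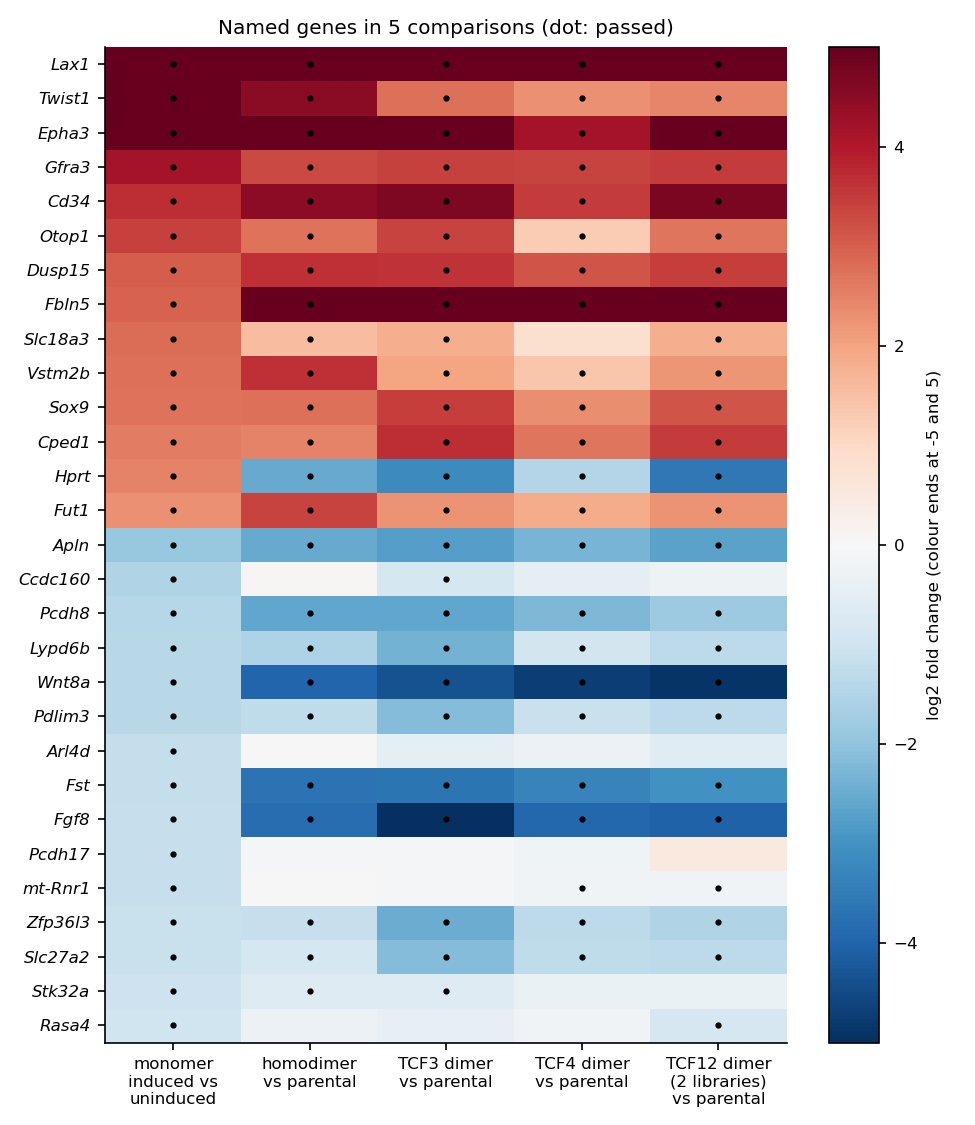
Log2 fold change (colour) of named genes with the largest changes (rows) in the monomer line, induced against uninduced, and in 4 dimer lines against the parental line (columns); a dot marks a gene that passed. The TCF12 dimer column leaves out replicate 1, and Hprt is the riser that is lower than the parental line in every dimer line.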

How the data were processed

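RNA-seq of day 3 embryoid bodies was deposited as raw counts per gene symbol, 1 table per library; the authors used FastQC, TopHat2 and HTSeq with mm10 (GRCm38), per the submitters' processing notes. Versions, strand setting and annotation are not given in the sources used here. Dates stood in place of 25 symbols in all but the TCF12 dimer libraries, so rows were joined by position.

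Here, the 6 monomer line libraries entered 1 fit in edgeR 4.0.16 (R 4.3.3) with its quasi-likelihood test, TMM factors, the default filterByExpr filter (count 10, total 15) and Benjamini-Hochberg adjustment. An adjusted p under 0.05 passes. Each dimer line was fitted separately against the parental line. CPM values use TMM factors over all 21 libraries. The standard error of each log2 fold change was back-calculated from its F value, and fold changes come from the fit of 6 libraries. Intervals of shares are 95% Wilson intervals, and the floor is 3 counts. Both cover counting error only, as PCR copies cannot be recognised. In the monomer line libraries the floor of 3 counts equals 0.29 to 0.479 CPM. Printed values under it, such as 2 of the uninduced Fbln5 levels, rest on fewer counts.

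The genes named are the 15 highest and 15 lowest log2 fold changes among passing genes whose groups do not overlap and whose higher group averages at least 1 CPM, Twist1 and the E-protein genes, and list members. Of these, 2 are not reported here by name. The members and lists were chosen with earlier results of these data known. Coordinates come from GENCODE M21 and promoters from RefSeq (GRCm38.p6). The fit was tested on simulated data: of 65 genes changed by 1 on the log2 scale, 60 were recovered, and of 68 changed by 0.5, 42 were recovered, among 12981 genes. In the simulation 8 unchanged genes passed, 4.6% of its calls. It gave every gene the same spread and held no library that stands apart, so these rates may not hold for the real libraries. Alternatives were DESeq2 1.42.0, other scalings and filters, larger fits, the replicate block and leaving out each library.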

Additional observations from a re-analysis of the deposited data

How the results depend on the processing

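Against the 682 genes that passed, 685 passed with RLE factors, 683 with a filter of at least 1 CPM in 3 samples, 592 with library size only, 928 with no filter and 463 with DESeq2. Falls numbered 163 with library size only and 138 with DESeq2, and rises made up 72.5% of calls with library size only against 64.1%. A fit of all 21 samples gave 286 genes, 218 higher and 68 lower, and one of 20 samples without TCF12 dimer replicate 1 gave 373 falls. With the replicate block, 942 genes passed, 568 higher and 374 lower. The numbers were not taken to pair the samples, since deviations of same-numbered libraries correlated at -0.109, 0.059 and 0.25 over 9061 genes. Removing ribosomal, small non-coding and histone genes gave 703, and removing 10 further loci high in uninduced replicate 1, chosen after seeing the data, gave 737. None of the log2 fold changes recomputed for named genes under these settings reversed in sign. Most of these genes were named because they passed on the same libraries, so their signs were likely to hold. Between 0 (RLE factors) and 48 (fit of all 21 samples) of them no longer passed, and 23 did not with DESeq2.

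Leaving out each library gave 375 to 844 genes, 257 to 516 higher and 114 to 328 lower. Some fits left out 1 library, either of the monomer line or replicate 1 of the TCF12 dimer line. Over these, the share of risen genes also higher in the TCF12 dimer line was 28.7% to 72.2%, and that of falls 21% to 69.4%. Both upper ends come from the fit without TCF12 dimer replicate 1. For genes called in the fit of 21 samples, the shares of rises and falls were 57.9% and 48.5%. With dimer and parental lines in 1 fit of 21 samples, chosen after seeing the data, they were 60.6% and 57.6%. The causes were not tested. Depth limits low genes: Lax1 and Gfra3 rest on 0 and 2 uninduced counts.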

Other observations

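Genes of antigen presentation and genes that link integrins to actin were listed after values had been seen, so their counts are a description, beside 3.33% rises and 1.87% falls over all genes tested. Of 15 tested genes of antigen processing and the immunoproteasome, 6 fell, 0 rose and 9 did not pass, with a median of -0.22. Tapbp, a chaperone of peptide loading, fell from 20.6, 26.0 and 21.5 CPM to 14.4, 14.4 and 13.2 CPM (log2 fold change -0.71 ± 0.11, edgeR adjusted p = 0.000465). The immunoproteasome subunit gene Psmb10 fell by 0.58 ± 0.09 and the proteasome activator gene Psme2 by 0.49 ± 0.08 on the log2 scale. These 3 passed in all 6 fits that leave out 1 library, and 4 of the 6 falls passed without uninduced replicate 1.

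Of 32 tested focal adhesion and actin linker genes, 7 rose, 0 fell and 25 did not pass, with a median of 0.09. Without uninduced replicate 1, 6 rose. Tns1, which encodes the focal adhesion protein tensin, rose from 13.4, 13.7 and 19.7 CPM to 59.1, 51.1 and 55.8 CPM (1.79 ± 0.11, edgeR adjusted p = 9.09e-09). Flnc, a filamin gene, rose by 1.04 ± 0.07, Fblim1, whose product binds filamin, by 1.04 ± 0.06 and the integrin gene Itga9 by 0.86 ± 0.16. Tns1 was also higher than the parental line in the 4 dimer lines, at 68.2 to 88.4 CPM against 14.0 CPM. The rise of Zyx did not pass without uninduced replicate 1 (adjusted p = 0.0526).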
